A study of Homo sapiens with 19 samples.

Results

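The 31 genes described here make sterols and fatty acids or regulate that synthesis. They were chosen by symbol from a table of raw RNA-seq counts of 23441 genes, and all 31 were found in it and passed the filter on low counts that kept 14225 genes. The cells were 786-O, a clear cell renal carcinoma line that has lost VHL, the protein that marks HIF-α subunits for destruction, and that makes only truncated HIF1A transcripts of its own. Pools of these cells were transduced with lentivirus from the pRRL vector alone (control cells), with the vector carrying HIF-1α (HIF-1α cells) or with the vector carrying HIF-2α (HIF-2α cells), each insert being followed by an internal ribosome entry site and EGFP. All 3 pools therefore shared the VHL defect and their own stable HIF-2α. RNA-seq gave 3 libraries per pool, and ChIP-seq gave 7 peak lists, each from 1 library. The paper states that RNA was prepared in triplicate, but nothing in the sources says that the 3 libraries of a pool came from separate cultures. The p-values therefore measure the spread between these libraries, which exceeded sampling noise but may not be that of separate cultures.

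Cholesterol is built from acetyl-CoA through the mevalonate pathway to squalene, which is closed into lanosterol and then trimmed to cholesterol in a chain of membrane enzymes. Fatty acids are built from the same acetyl-CoA, which ACLY makes from citrate. Both routes are under SREBP transcription factors, encoded by SREBF1 and SREBF2. When sterols are scarce SCAP carries the SREBP precursors from the endoplasmic reticulum to the Golgi for cleavage, and when sterols are plentiful INSIG1 and INSIG2 hold SCAP back. Clear cell renal carcinoma is named for its lipid- and glycogen-filled cytoplasm.

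Library totals ranged from 27852754 to 54287621 counts, and at these depths the spread between replicates, not counting error, limited the comparisons of these genes. HIF1A, the gene introduced into the HIF-1α cells, stood at 172, 1682 and 473 CPM (read counts scaled to library size) in the HIF-1α cells, at 30.4, 36.7 and 152 CPM in the control cells and at 15.3, 30.4 and 17.5 CPM in the HIF-2α cells. Replicate 3 of the control cells was thus well above the other 5 libraries that had not received HIF-1α, and the values that lean on it are also given without it. EPAS1, which encodes HIF-2α, stood at 946, 3244 and 880 CPM in the HIF-2α cells and between 162 and 627 CPM in the other 6 libraries. The genes chosen as markers of this renal line, PAX8, PAX2, KRT8, KRT18 and VIM, were all above the filter, although VIM is not an epithelial marker. A further 5 markers of other cell types (PTPRC, CD79A, PECAM1, CDH5 and ALB) summed to at most 1.19 CPM in any library. Libraries with the same replicate number in different pools deviated together, so each comparison was also fitted with that number as a blocking term, and values from this fit are given beside those from the fit without it.

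Per kilobase of annotated exon, SCD was the most abundant of the 31 genes, at a mean of 425 CPM per kb over the 9 libraries. SCD, which puts the first double bond into saturated fatty acids, was followed by the methylsterol oxidase MSMO1 at 141 and by INSIG1 at 109 CPM per kb. The lowest were TM7SF2, a sterol reductase, at 1.60 and the mevalonate kinase MVK at 2.60 CPM per kb. The spread between the 3 libraries of a pool was wide. The coefficient of variation of CPM had a median over the genes of 27.8% in control, 20.9% in HIF-1α and 28.3% in HIF-2α cells. It was highest for HMGCS1 in control cells at 56.9%, for TM7SF2 in HIF-1α cells at 77.8% and for SCD in HIF-2α cells at 72.1%.

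**Figure D1:**
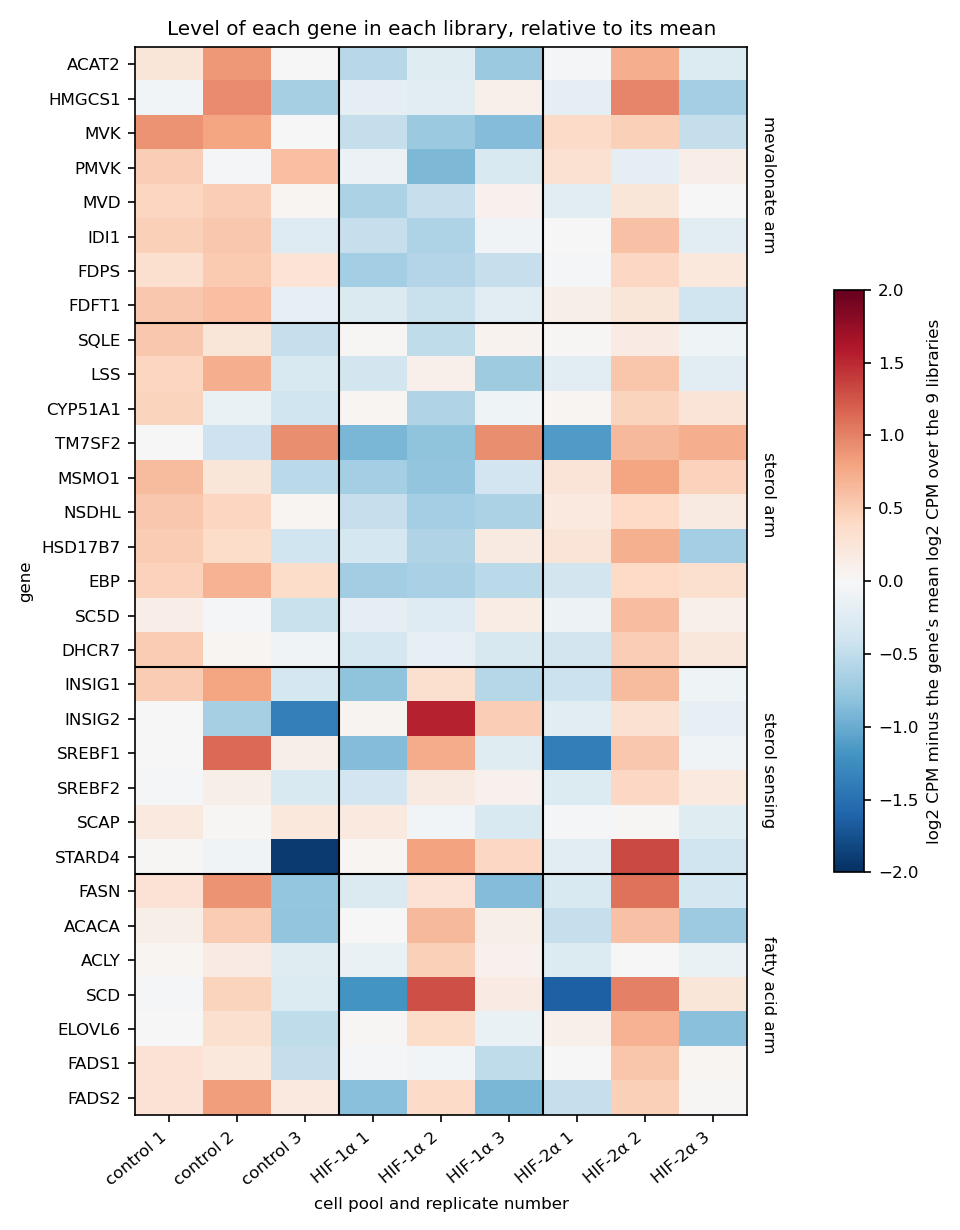
Level of each of the 31 genes (rows, grouped by their place in the pathway) in each of the 9 libraries (columns), as log2 CPM minus the gene's mean log2 CPM over the 9 libraries. In the upper 2 blocks the HIF-1α columns are mostly blue, while the column of HIF-2α replicate 2 is red or pale for nearly all genes.

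The first comparison asked whether re-expression of HIF-1α altered the transcripts of these pathways. Most genes of the sterol route were lower in HIF-1α cells than in control cells, while the fatty acid genes lay on both sides of the control level. All 8 genes of the mevalonate arm had a log2 fold change below 0, with a median of -0.74, and so did 9 of the 10 genes of the sterol arm, with a median of -0.44. The 6 genes of sterol sensing had a median of -0.07, with 3 below 0, and the 7 genes of the fatty acid arm had a median of 0.12, with 3 below 0, which became -0.05, with 4 below 0, in the fit with the block. Over all 31 genes the median was -0.45, and 23 of them were below 0, against a median of 0.04 over all 14225 genes tested, of which 47.6% were below 0.

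None of the 31 genes passed an adjusted p of 0.05 in the edgeR quasi-likelihood fit without the block, in which no gene of the 14225 passed either (0% higher and 0% lower). Taken without adjustment, p was under 0.05 for 10 of the 31 genes on the lower side, against 8.23% of all genes, and for 1 gene (INSIG2) on the higher side, against 11.1%. In the edgeR fit with the replicate block 7 genes fell at an adjusted p under 0.05, against 2.55% of all genes tested, and none rose, against 5.41%. The 7 were ACAT2, MVK, PMVK and FDPS of the mevalonate arm, NSDHL and EBP of the sterol arm and FADS2 of the fatty acid arm. These calls lay close to the threshold, with adjusted p from 0.0315 to 0.0431, and they rest on single libraries. With the block and 1 library left out, between 0 and 8 genes were called. The 8 were called without replicate 1 of the control cells, 6 lower and 2 higher (INSIG2 and STARD4). In that fit 2408 of all 14512 genes were called. None of the 31 was called without replicate 2 of the HIF-1α cells, without replicate 1 of the HIF-2α cells, or without replicate 2 or 3 of the control cells, and in each of these 4 fits no gene of the whole table was called. Only INSIG2 was called without replicate 1 and only MVK without replicate 3 of the HIF-1α cells. DESeq2 called 5 of the 31 genes without the block and 12 with it. Of all genes with an adjusted p it called 753 of 14260 and 3036 of 13956.

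MVK, the mevalonate kinase (chr12:110011060-110035930, GRCh37, plus strand), had the largest decrease. It stood at 39.8, 36.9 and 21.3 CPM in replicates 1, 2 and 3 of the control cells and at 15.3, 12.7 and 11.7 CPM in the HIF-1α cells. The highest HIF-1α library was below the lowest control library. The gene fell by 1.25 ± 0.21 on the log2 scale (SE) in the edgeR fit with the block, which is 2.38-fold lower (adjusted p = 0.0315), and it was lower in all 3 same-numbered pairs. Without the block the log2 fold change was -1.31 ± 0.32 with an adjusted p of 0.149.

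EBP, the isomerase that moves a double bond in the sterol ring (chrX:48380187-48387104, plus strand), fell in a similar way. Its control libraries read 160, 188 and 150 CPM and its HIF-1α libraries 71.2, 73.7 and 79.9 CPM. The means were 166 ± 19.7 and 74.9 ± 4.47 CPM (SD, n = 3 each), and the groups did not overlap. With the block EBP fell by 1.14 ± 0.20 on the log2 scale (edgeR adjusted p = 0.0315), and without it the adjusted p was 0.149. A share of 36.4% of its exonic bases is also annotated to a read-through gene on the same strand, and the counting mode of the study, intersection-strict, drops reads that lie wholly inside a pair of annotated genes. Whether the UCSC gene set used for counting held that read-through gene was not examined.

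FDPS, farnesyl diphosphate synthase (chr1:155278539-155290457, plus strand), makes the precursor of squalene and of protein prenyl groups. It read 253, 290 and 244 CPM in control cells and 127, 135 and 148 CPM in HIF-1α cells, again without overlap. FDPS fell by 0.94 ± 0.17 on the log2 scale with the block (edgeR adjusted p = 0.032), and the fit without the block gave nearly the same log2 fold change of -0.94 ± 0.20 with an adjusted p of 0.149.

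NSDHL, a dehydrogenase that helps to remove methyl groups from lanosterol (chrX:151999511-152038273, plus strand), read 90.8, 84.0 and 63.7 CPM in control cells and 45.1, 38.8 and 39.9 CPM in HIF-1α cells. These groups were separate too, and the fall was 0.93 ± 0.17 on the log2 scale with the block (edgeR adjusted p = 0.0334). MVK, FDPS, NSDHL and EBP were the 4 genes whose 3 HIF-1α libraries lay below all 6 other libraries. The share of all genes with this order was not counted. Against the control libraries alone 11.2% of all genes tested were lower with no overlap, and against the HIF-2α libraries alone 8.82%.

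ACAT2, the thiolase that joins 2 acetyl-CoA units at the start of the pathway (chr6:160183077-160200144, plus strand), read 91.3, 140 and 77.3 CPM in control cells and 52.3, 65.2 and 45.9 CPM in HIF-1α cells. Its groups did not overlap, and it fell by 0.88 ± 0.17 on the log2 scale with the block (edgeR adjusted p = 0.0341). On the opposite strand 17.2% of its exonic bases belong to TCP1, and whether the counting used strand is not given in the sources used here. PMVK, phosphomevalonate kinase (chr1:154897216-154909195, minus strand), read 49.2, 34.8 and 53.6 CPM in control cells and 32.3, 18.9 and 28.4 CPM in HIF-1α cells. The gap between its groups was narrow, from 32.3 to 34.8 CPM, and it fell by 0.80 ± 0.17 on the log2 scale with the block (edgeR adjusted p = 0.0364).

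FADS2, which puts a double bond into polyunsaturated fatty acids (chr11:61560452-61634826, plus strand), was the only gene of the fatty acid arm that was called. It read 497, 726 and 465 CPM in control cells and 227, 531 and 214 CPM in HIF-1α cells. Replicate 2 was the highest library in both pools and the groups overlapped, but within each same-numbered pair the HIF-1α library was lower, by 1.13, 0.45 and 1.12 on the log2 scale. FADS2 fell by 0.89 ± 0.22 on the log2 scale with the block (edgeR adjusted p = 0.0431), while without it the adjusted p was 0.294.

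**Figure D2:**
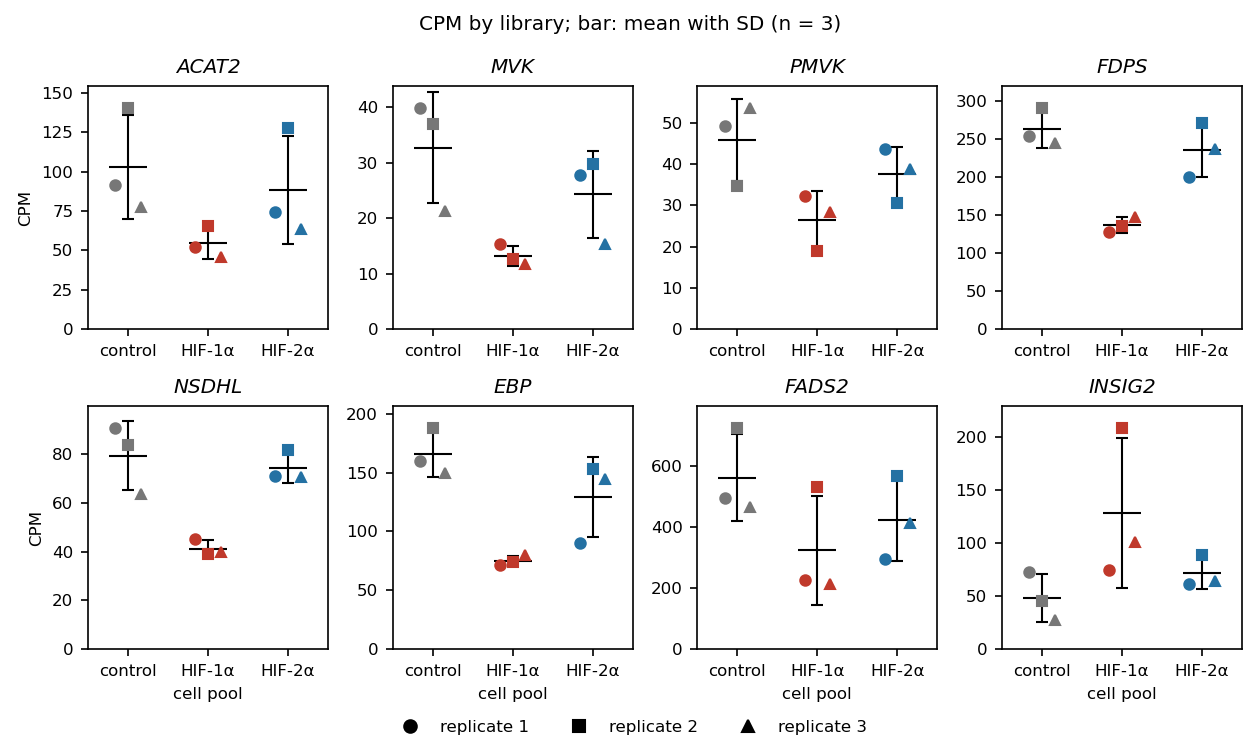
CPM of the 7 genes called with the replicate block and of INSIG2 in each library (points, shaped by replicate number), with the mean and SD of each pool (n = 3, bars). In the panels of MVK, FDPS, NSDHL and EBP the 3 HIF-1α points lie below all control and HIF-2α points, and in the FADS2 panel replicate 2 of the HIF-1α cells lies among the control points.

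The other genes of the sterol route had smaller or more variable differences, and none of them was called by edgeR in either fit. Squalene synthase FDFT1 had separate groups, at 213, 222 and 131 CPM in control and 120, 108 and 125 CPM in HIF-1α cells, with a log2 fold change of -0.63 ± 0.21 with the block (adjusted p = 0.0818). DHCR7, which completes cholesterol, also had separate groups. MSMO1 read 582, 440 and 256 CPM in control cells and 233, 218 and 288 CPM in HIF-1α cells, so that its lowest control library, replicate 3, lay inside the range of the HIF-1α cells. Lanosterol synthase LSS (-0.62), the decarboxylase MVD (-0.65), the isomerase IDI1 (-0.61) and the HMG-CoA synthase HMGCS1 (-0.11) were below 0 on the log2 scale with the block, and so were squalene epoxidase SQLE (-0.24), the demethylase CYP51A1 (-0.19), TM7SF2 (-0.45) and the ketoreductase HSD17B7 (-0.34). SC5D, a sterol desaturase, was the 1 gene of the route not below 0, at 0.02 ± 0.24. The count of CYP51A1 is uncertain, since 68.2% of its exonic bases are also annotated to a read-through gene on the same strand. HSD17B7 and FDPS have pseudogene copies and reads without a unique position were removed upstream, so their counts are uncertain too.

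Among the genes of sterol sensing 2 stood above the control cells, although edgeR called neither in either fit of all libraries and their differences in pair 1 were near nil. INSIG2 (chr2:118846028-118868573, plus strand), one of the proteins that hold SCAP in the endoplasmic reticulum, read 72.2, 45.0 and 27.8 CPM in control cells and 74.7, 208 and 101 CPM in HIF-1α cells. The highest HIF-1α library was replicate 2, which also had the most HIF1A, but replicate 2 was the highest library of the HIF-2α cells too, at 88.2 CPM. A link to the HIF1A level was not tested. The lowest HIF-1α library exceeded the highest control library by a small margin. In same-numbered pairs 1, 2 and 3 the INSIG2 differences were 0.05, 2.21 and 1.86 on the log2 scale. INSIG2 had a log2 fold change of 1.41 ± 0.43 without the block (edgeR adjusted p = 0.165) and 1.36 ± 0.37 with it (edgeR adjusted p = 0.0553), and DESeq2 called it in both fits. Its adjusted p over all alternatives ran from 0.00416 to 0.347. It and STARD4 are singled out after their values were seen. STARD4, which carries sterols between membranes, read 38.3, 36.1 and 10.1 CPM in control and 38.7, 66.3 and 50.6 CPM in HIF-1α cells, with 1.03 ± 0.41 on the log2 scale with the block (edgeR adjusted p = 0.122). Its pair differences were 0.02, 0.88 and 2.32. INSIG1, a target of SREBP, read 524, 640 and 288 CPM in control and 212, 460 and 249 CPM in HIF-1α cells, with -0.69 ± 0.24 (edgeR adjusted p = 0.0925). SREBF1, SREBF2 and SCAP had values of -0.56, 0.02 and -0.20.

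Of the 31 genes, 8 were lower with no overlap between the libraries of the 2 pools (ACAT2, MVK, PMVK, FDPS, FDFT1, NSDHL, EBP and DHCR7), which is 25.8%, and the share of all genes tested was 11.2%. INSIG2 and STARD4 were higher with no overlap, and for that direction the share of all genes was 12.9%. Within same-numbered pairs 16 genes were lower in all 3 pairs, against 25% of all genes, and 3 were higher in all 3 pairs (INSIG2, STARD4 and the elongase ELOVL6), against 29%. In pair 1 these 3 were higher by only 0.05, 0.02 and 0.03 on the log2 scale. The pairs differed in how many genes were lower. The HIF-1α library was the lower one for 28 of 31 genes in pair 1, for 24 in pair 2 and for 16 in pair 3, and the medians of the 3 pairs were -0.80, -0.48 and -0.01 on the log2 scale.

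Pair 3 holds the control library with raised HIF1A. That library was the lowest of the 3 control libraries for 27 of the 31 genes. Without it, the median over the 31 genes was -0.65 in the fit without the block and -0.60 in the fit with it, against -0.45 in both fits with all 9 libraries. INSIG2 and STARD4 had their lowest control value in it, and without it their log2 fold changes with the block were 1.08 and 0.56, against 1.36 and 1.03. The part of HIF1A in that library in these values was not tested.

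**Figure D3:**
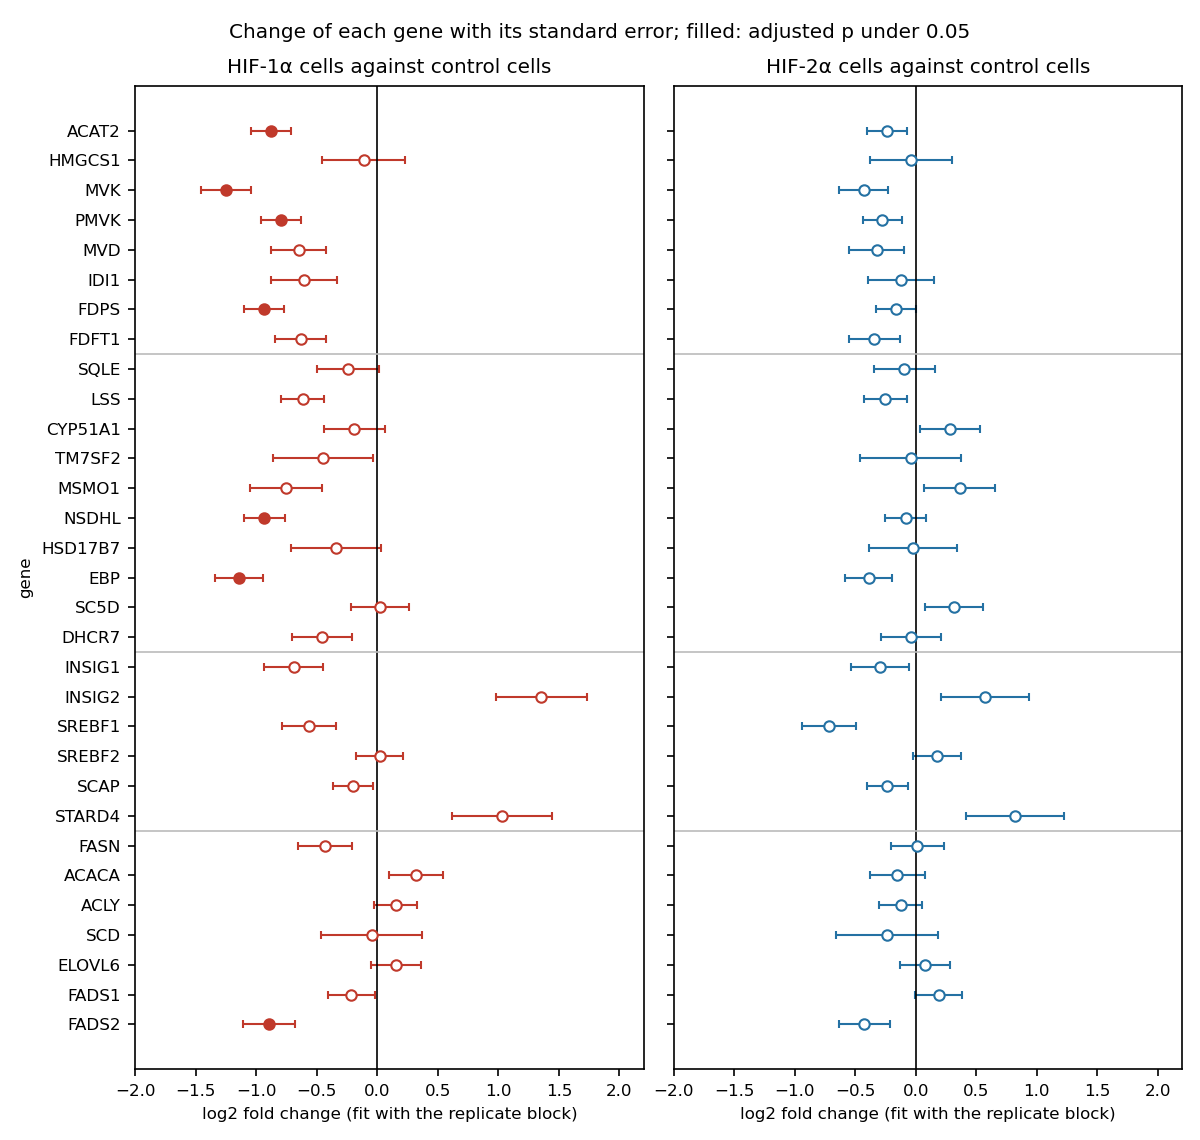
Log2 fold change of each gene against control cells in the fit with the replicate block (points, with standard error), for HIF-1α cells (left) and HIF-2α cells (right). Filled points have an adjusted p under 0.05, which 7 genes have on the left and none has on the right.

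In the fatty acid arm the 6 genes other than FADS2 were not called by edgeR in either fit. ACACA and ACLY, which make malonyl-CoA and acetyl-CoA, had log2 fold changes of 0.32 ± 0.23 and 0.15 ± 0.18 with the block, and fatty acid synthase FASN had -0.43 ± 0.22. SCD read 1821, 2548 and 1560 CPM in control cells and 824, 4608 and 2109 CPM in HIF-1α cells. Its HIF-1α libraries thus lay on both sides of the control libraries, and its log2 fold change was -0.05 ± 0.42 with the block and 0.35 ± 0.67 without it. ELOVL6 and FADS1 had 0.16 ± 0.21 and -0.22 ± 0.20.

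The second comparison asked whether overexpression of HIF-2α, which these cells already contain, altered the same genes. No gene of the 31 was called in the edgeR fit without the block, in the edgeR fit with it or in either DESeq2 fit. Of all genes tested 0.112% were called higher and 0.155% lower in the edgeR fit with the block. Without adjustment, p was under 0.05 in that fit for SREBF1 alone, on the lower side, while 7.69% of all genes were higher and 6.84% lower by that measure. In the fit without the block no gene of the 31 had an unadjusted p under 0.05, and 3.35% of all genes were higher and 2.54% lower. The median over the 31 genes was -0.12, and 20 of them were below 0, against 52.5% of all genes. All 8 genes of the mevalonate arm were below 0, between -0.43 and -0.02 on the log2 scale without the block. The median over the 31 genes depended on single libraries, running from -0.29 without replicate 2 of the HIF-2α cells to -0.02 without replicate 2 of the control cells, and it was -0.23 without replicate 3 of the control cells. With the block it was -0.12, and 0.05 without replicate 1 of the control cells.

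The 3 genes with the largest differences were all of sterol sensing. STARD4 read 32.8, 94.4 and 28.6 CPM in HIF-2α cells, against 38.3, 36.1 and 10.1 CPM in control cells, with a log2 fold change of 0.82 ± 0.41 in the fit with the block (edgeR adjusted p = 0.382). SREBF1 read 35.3, 134 and 87.6 CPM, against 92.7, 201 and 99.8 CPM in control cells, with -0.72 ± 0.23 (edgeR adjusted p = 0.228). It was the lower of the 2 in every same-numbered pair, by 1.39, 0.59 and 0.19, although the groups overlapped. INSIG2 read 61.5, 88.2 and 64.1 CPM, with 0.57 ± 0.36 (edgeR adjusted p = 0.478). Without replicate 3 of the control cells the values of STARD4 and INSIG2 with the block were 0.41 and 0.29. SCAP was the 1 gene whose HIF-2α libraries all lay below the control libraries, at 65.1, 67.6 and 56.6 against 76.8, 68.1 and 77.0 CPM, and the share of all genes lower with no overlap was 5.19%. None was higher with no overlap, against 6% of all genes. Within same-numbered pairs 10 genes were lower in all 3 pairs, against 19.4% of all genes, and none was higher in all 3, against 19.7%. In pair 1 the HIF-2α library was lower for 30 of the 31 genes, against 15 in pair 2 and 14 in pair 3.

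The direct contrast of HIF-1α with HIF-2α cells tests whether the 2 vectors differed. The fit took its spread from all 9 libraries. The median over the 31 genes was -0.37, and 25 of them were below 0, against 48.1% of all genes, including all 18 genes of the mevalonate and sterol arms. Without replicate 2 of the HIF-2α cells that median was -0.10. Without the block none of the 31 genes was called, and 0.0281% of all genes were called higher and 0.0211% lower. Without adjustment, p was under 0.05 for 5 genes on the lower side (MVK, FDPS, MSMO1, NSDHL and EBP), against 4.6% of all genes, and for none on the higher side, against 9.04%. DESeq2 called 3 of the 31 genes without the block and 7 with it. Of all genes with an adjusted p it called 649 of 14631 and 1799 of 14698. With the block 3 genes were lower in HIF-1α cells, against 1.38% of all genes, and none was higher, against 4.54%. NSDHL read 70.9, 81.5 and 70.8 CPM in HIF-2α cells, well above its HIF-1α libraries, and was lower in HIF-1α cells by 0.85 ± 0.17 on the log2 scale (edgeR adjusted p = 0.0227). FDPS read 200, 271 and 236 CPM in HIF-2α cells and differed by -0.78 ± 0.17 (edgeR adjusted p = 0.0294). MVK read 27.8, 29.7 and 15.4 CPM in HIF-2α cells and differed by -0.82 ± 0.21, with an adjusted p of 0.0499 that lies at the threshold. Its lowest HIF-2α library was barely above its highest HIF-1α library, at 15.4 against 15.3 CPM.

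MSMO1 had the largest difference of this contrast. It read 447, 649 and 517 CPM in HIF-2α cells against 233, 218 and 288 CPM in HIF-1α cells, and its log2 fold change was -1.11 ± 0.30 with the block (edgeR adjusted p = 0.0599). In all, 6 of the 31 genes were lower with no overlap (MVK, FDPS, MSMO1, NSDHL, EBP and FADS1), against 8.82% of all genes, and 12 were lower in all 3 same-numbered pairs, against 24.1%. With the block and 1 library left out between 0 and 3 genes were called. None was called without replicate 1 or 2 of the HIF-1α cells or without replicate 2 or 3 of the HIF-2α cells, 1 (NSDHL) without replicate 2 of the control cells, and 2 without replicate 1 of the HIF-2α cells (NSDHL and EBP). The fits that called none of the 31 still called 592, 324, 526 and 167 genes of the whole table, in the order named.

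The replicate numbers, too, separated some of these genes. In an edgeR test of the replicate number with the pool kept in the model, 9 of the 31 genes passed an adjusted p of 0.05, and 15.4% of all genes tested did. These were ACAT2, LSS, INSIG1, SREBF1, FASN, ACACA, SCD, ELOVL6 and FADS2, so that 5 of the 7 genes of the fatty acid arm, 2 of the 6 of sterol sensing and 1 each of the mevalonate and sterol arms were called. In each of the 9 the mean over the pools was highest for replicate 2, a pattern that 2.95% of all genes tested had. Among all 31 genes replicate 2 had the highest mean for 24, which is 77.4% against 31.5% of all genes tested. The pools differed in this. Replicate 2 was the highest library of its pool for 29 genes in HIF-2α cells, 17 in control cells and 14 in HIF-1α cells. It was the lowest for 1, 3 and 10 genes.

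SREBF1 showed the pattern most clearly. Its libraries of number 2 read 201, 154 and 134 CPM in control, HIF-1α and HIF-2α cells, while those of number 1 read 92.7, 50.2 and 35.3 CPM and those of number 3 read 99.8, 77.9 and 87.6 CPM. All 3 libraries of number 2 lay above the other 6, and the geometric means of the numbers differed by up to 2.93-fold (edgeR adjusted p = 0.0085). FASN differed by up to 2.67-fold (adjusted p = 0.0104), with 616, 406 and 701 CPM in number 2 and less in every other library. SCD differed by up to 3.66-fold (adjusted p = 0.0466). Its lowest 2 libraries of all, at 603 and 824 CPM, were number 1 of the HIF-2α and of the HIF-1α cells.

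This result also rests on single libraries. Leaving out 1 library gave between 2 and 12 called genes. The fewest, 2, were called without replicate 1 of the HIF-1α cells and without replicate 3 of the control cells, 3 were called without replicate 2 of the HIF-2α or of the control cells, and 4 without replicate 2 of the HIF-1α cells or replicate 1 or 3 of the HIF-2α cells. The labels do not say what a replicate number stands for.

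**Figure D4:**
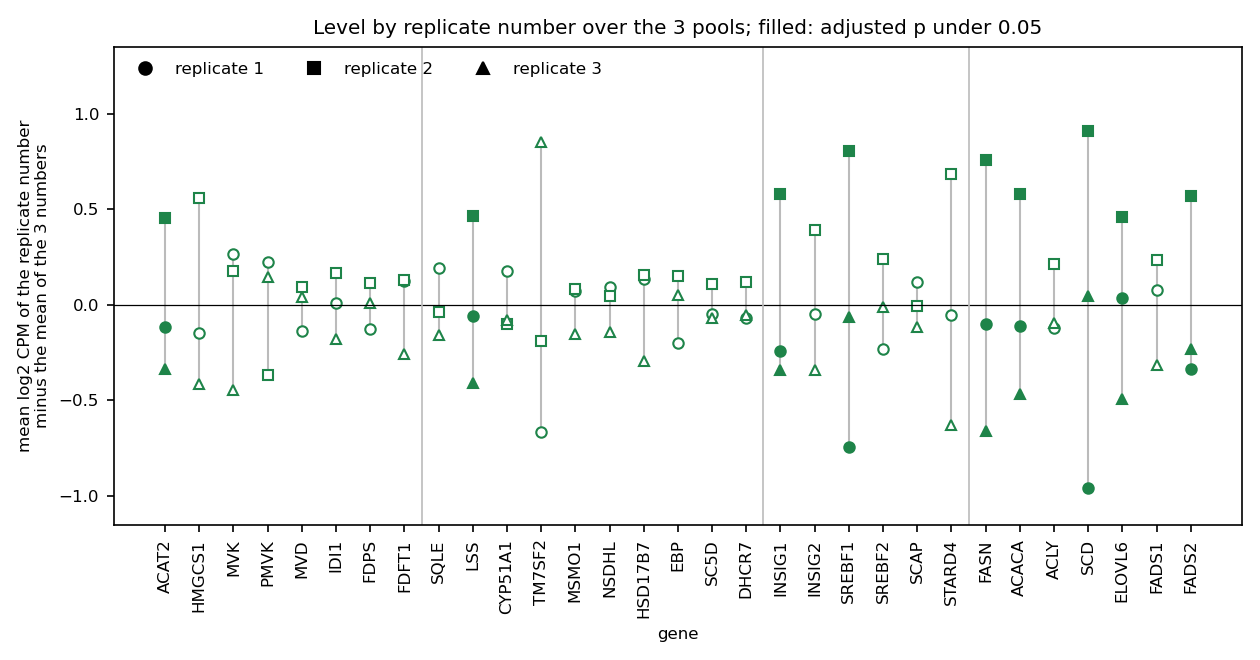
Mean log2 CPM of each replicate number over the 3 pools, minus the mean of the 3 numbers, for each gene (circle, square and triangle for numbers 1, 2 and 3). Filled symbols mark the 9 genes with an adjusted p under 0.05, in all of which the square of number 2 is on top.

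The peak lists show where HIF subunits bound near these genes. A peak was assigned to a gene when its midpoint lay within 10 kb of any annotated start site (distances are negative upstream of the start), and 22 of the 31 genes had a peak in at least 1 list. Of the 81 such pairs of gene and list, 65 had the midpoint within 1 kb of the start site. The HIF-1α list of the HIF-1α cells held a peak at 17 of the 31 genes (54.8%, 95% Wilson interval 37.8 to 70.8), against 34.6% of the genes tested that could be placed on the genome. The interval covers counting error only, and FADS1 and FADS2 share their peak. The 17 were MVD and IDI1 of the mevalonate arm, SQLE, LSS, CYP51A1 and DHCR7 of the sterol arm, all 6 genes of sterol sensing, and ACACA, SCD, ELOVL6, FADS1 and FADS2.

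HIF-1β, the shared partner of both HIF-α subunits, had a peak at 18 genes in control cells, at 17 in HIF-1α cells and at 13 in HIF-2α cells, against 25.7%, 40.8% and 16.2% of all placed genes. HIF-2α had a peak at 5 of the genes in control cells (INSIG2, ACLY, SCD, FADS1 and FADS2), against 5.32% of all placed genes, and at 10 in HIF-2α cells, against 14.5%. In HIF-1α cells the HIF-2α list held a peak at SCD alone, against 4.21%. The lists have 1 library each, so no test between them was made, and their depth is not known from them.

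The genes called lower by edgeR mostly lacked a HIF-1α peak, but other genes below 0 had one. Of the 7 genes that fell with HIF-1α in the edgeR fit with the block, FADS2 alone had a HIF-1α peak within 10 kb. Of the other 24 genes 16 had one, and the share of all placed genes was 34.6%. MVD, LSS and INSIG1, which DESeq2 with the block also called lower, were among these 16, while FDFT1, called lower there too, was not. ACAT2, MVK, NSDHL and EBP had no peak in any of the 7 lists, PMVK had a HIF-1β peak in control cells, and FDPS had a HIF-1β peak in HIF-1α cells 4.22 kb from a start site. INSIG2 and STARD4, which were higher with no overlap, both had a HIF-1α peak, at -0.16 and 0.15 kb from a start site. All 6 genes of sterol sensing had one, however, including INSIG1, SREBF1 and SCAP, which were below 0. STARD4 had no HIF-1β peak within 10 kb in HIF-1α cells. These comparisons were made after the values were seen and were not tested.

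**Figure D5:**
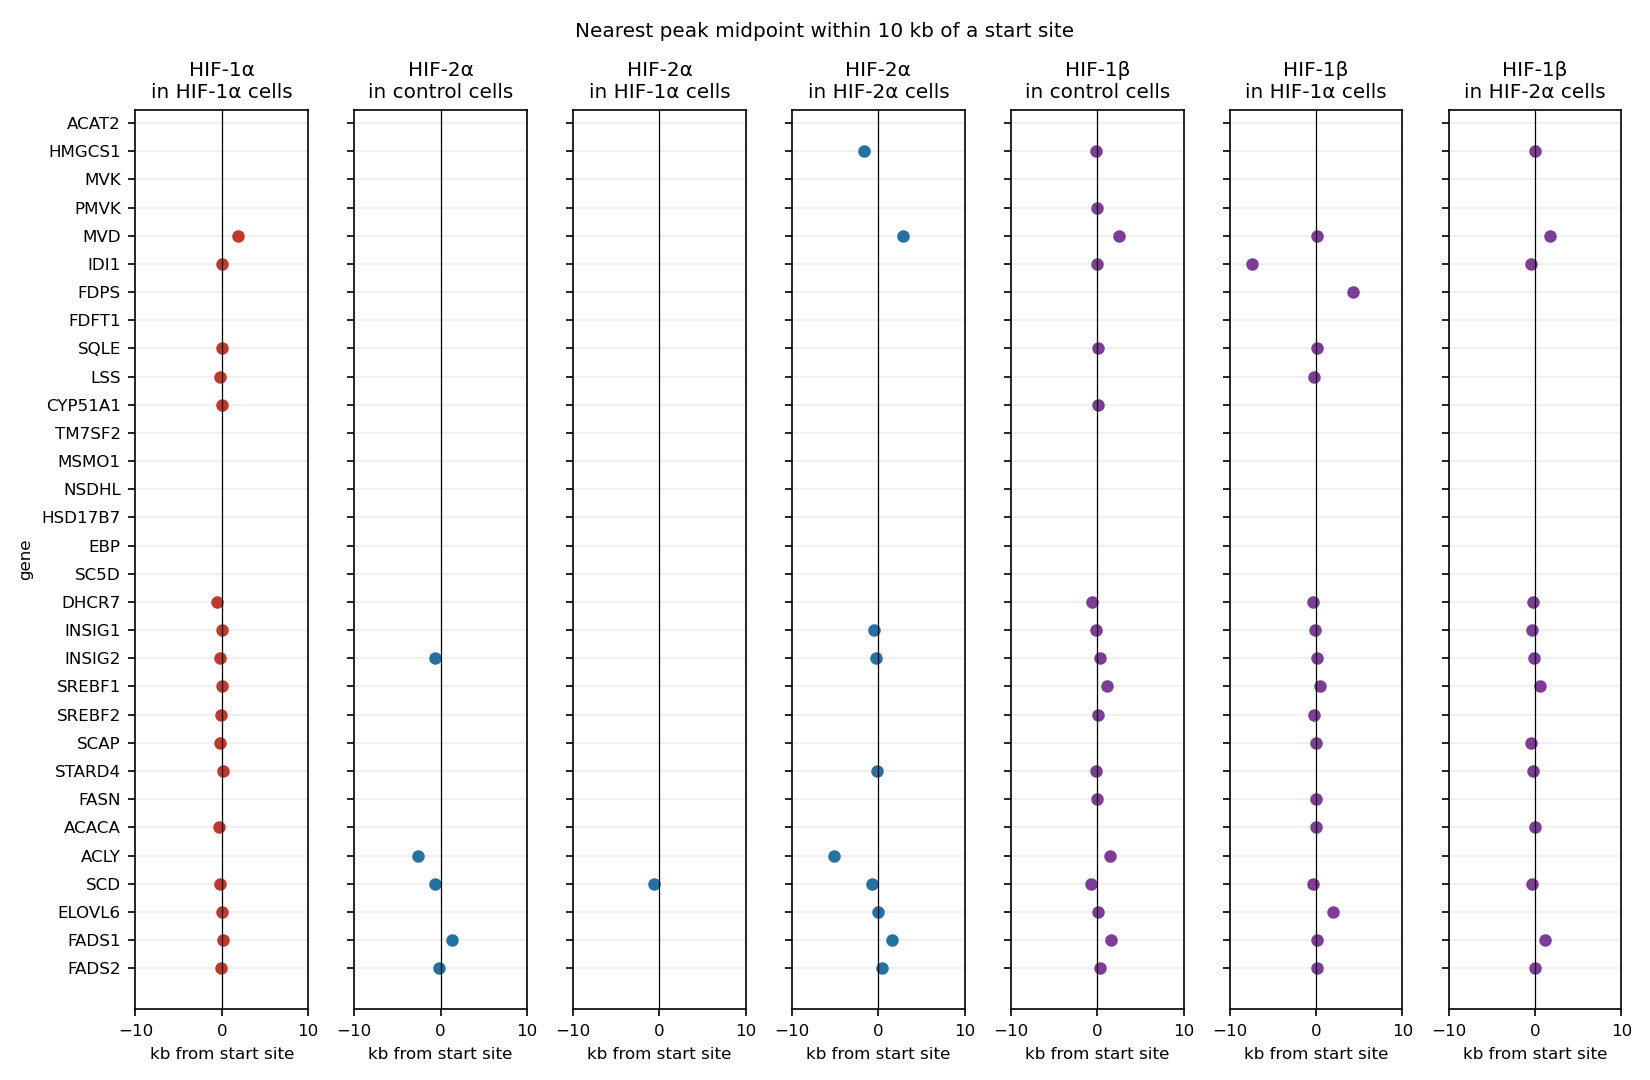
Distance in kb of the nearest peak midpoint from a start site, for each gene (rows) and each of the 7 peak lists (panels), with genes without a peak within 10 kb left blank. SCD has a point in all 7 panels, and ACAT2, MVK, NSDHL and EBP have none in any.

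The sequences at the centre of 3 of these peaks are shown because they lie at genes that stand out above. HIF dimers bind a core that reads ACGTG or GCGTG, here searched on both strands, so that CACGT and CACGC on the printed strand count too. Each window is the central 300 bases of a peak on the plus strand of GRCh37, with the cores in capitals. The first is the HIF-1α peak of the HIF-1α cells at INSIG2 (chr2:118845715-118846014), the second the HIF-2α peak of the HIF-2α cells at SCD (chr10:102106159-102106458) and the third the HIF-1α peak shared by FADS1 and FADS2 (chr11:61583655-61583954).
INSIG2: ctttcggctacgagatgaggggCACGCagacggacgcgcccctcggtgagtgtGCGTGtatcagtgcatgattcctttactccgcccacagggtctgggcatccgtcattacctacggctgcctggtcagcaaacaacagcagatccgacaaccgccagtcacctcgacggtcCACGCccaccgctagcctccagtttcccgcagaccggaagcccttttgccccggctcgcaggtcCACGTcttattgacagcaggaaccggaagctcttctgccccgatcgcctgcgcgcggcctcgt
SCD: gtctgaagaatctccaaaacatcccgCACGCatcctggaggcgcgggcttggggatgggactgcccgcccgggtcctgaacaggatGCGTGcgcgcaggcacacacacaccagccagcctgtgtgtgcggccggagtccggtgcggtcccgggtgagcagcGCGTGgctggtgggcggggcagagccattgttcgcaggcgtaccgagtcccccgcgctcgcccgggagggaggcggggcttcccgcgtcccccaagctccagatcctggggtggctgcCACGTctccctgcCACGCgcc
FADS1 and FADS2: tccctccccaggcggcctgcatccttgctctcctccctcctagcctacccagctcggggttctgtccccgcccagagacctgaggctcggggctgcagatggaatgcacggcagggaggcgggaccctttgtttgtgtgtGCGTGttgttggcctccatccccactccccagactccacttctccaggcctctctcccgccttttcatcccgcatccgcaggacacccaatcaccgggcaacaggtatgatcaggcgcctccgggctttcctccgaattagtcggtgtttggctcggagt
The INSIG2 window holds 4 cores, the SCD window 5 and the FADS window 1. At least 1 core was present in 65.4% of the central windows of all HIF-1α peaks of the HIF-1α cells and in 45.7% of those of all HIF-2α peaks of the HIF-2α cells.

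SCD was the 1 gene with a peak in all 7 lists. Its HIF-2α peaks in control, HIF-1α and HIF-2α cells lay at -0.65, -0.68 and -0.68 kb from the start site, and the HIF-1α peak lay closer, at -0.15 kb. INSIG2 had a peak in 6 lists, all but that of HIF-2α in HIF-1α cells. FADS1 lies within the annotated span of FADS2 on the opposite strand, and 4.79% of its exonic bases are shared with FADS2. Here the midpoint bound by HIF-1α was 0.13 kb past a FADS1 start and -0.07 kb from a FADS2 start, while the HIF-2α peaks of control and HIF-2α cells did not overlap it and lay -0.21 and 0.39 kb from other start sites of FADS2.

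Promoter sequences of 27 of the 31 genes were found in RefSeq (GRCh38.p14), each with 250 bases before and 50 after the start. The SREBP element written as TCACNCCAC, searched on both strands, was present in 1 of them, that of SREBF2, and in 1.15% of all 27305 promoters of the same length. CCAAT, the letters bound by NF-Y, was present in 17 of the 27 (63.0%), against 35.7% of all promoters and 36.4% of those of genes tested. ACGTG or GCGTG was present in 22 (81.5%), against 48.4% of all promoters and 61.9% of those of genes tested. A match is a description of letters. A lack of one means only that these exact letters were absent from this window, not that no other form of the element was there.

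The 250 bases before the start of 3 of these genes are shown, those of SREBF2 (chr22:41832855-41833104) because it held the SREBP element and those of MVK (chr12:109573544-109573793) and NSDHL (chrX:152830813-152831062) because these genes, like FDPS, were called in both contrasts of HIF-1α cells. MVK and NSDHL here, and INSIG2 and SCD above, were picked for display after their values were seen. All are on the plus strand of GRCh38.p14. Capitals mark TCACNCCAC for SREBF2 and CCAAT, or ATTGG on the printed strand, for MVK and NSDHL.
SREBF2: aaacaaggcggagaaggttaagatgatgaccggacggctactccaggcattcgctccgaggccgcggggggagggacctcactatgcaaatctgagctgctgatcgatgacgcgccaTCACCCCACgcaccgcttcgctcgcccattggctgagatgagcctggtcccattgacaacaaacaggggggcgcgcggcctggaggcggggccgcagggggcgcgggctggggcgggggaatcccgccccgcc
MVK: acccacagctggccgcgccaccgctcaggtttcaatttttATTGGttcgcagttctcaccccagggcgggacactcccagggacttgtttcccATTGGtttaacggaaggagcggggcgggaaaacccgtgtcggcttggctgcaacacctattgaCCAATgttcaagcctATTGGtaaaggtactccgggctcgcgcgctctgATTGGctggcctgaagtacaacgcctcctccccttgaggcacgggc
NSDHL: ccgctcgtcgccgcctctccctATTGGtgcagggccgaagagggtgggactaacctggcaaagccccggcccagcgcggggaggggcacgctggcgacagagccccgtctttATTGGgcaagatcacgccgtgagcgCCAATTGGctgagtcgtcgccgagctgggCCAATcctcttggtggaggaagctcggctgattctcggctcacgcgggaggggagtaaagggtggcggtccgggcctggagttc
MVK and NSDHL held 5 CCAAT matches each, with those of NSDHL including an overlapping pair on opposite strands. The promoter of MVK held no HIF core, and that of NSDHL held 3. The element of SREBF2 begins at -133 relative to the start and overlaps its 1 HIF core.

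Other genes of the same metabolism were followed in 4 lists with 49 genes, of which 44 were tested. They comprised further SREBP and LXR pathway genes, other fatty acid synthesis and elongation genes, isoprenoid branch genes and genes of sterol ester and transport. None was called in any contrast without the block. With the block 2 of the 44 were called with HIF-1α against control, while 5.41% of all genes tested were called higher and 2.55% lower. ACACB, the acetyl-CoA carboxylase of mitochondrial membranes, read 3.91, 4.04 and 2.63 CPM in control and 8.21, 8.05 and 7.19 CPM in HIF-1α cells, and rose by 1.18 ± 0.24 on the log2 scale (edgeR adjusted p = 0.0366) with separate groups. POR, the reductase that supplies electrons to CYP51A1 and SQLE, read 318, 178 and 169 CPM in control and 190, 84.7 and 81.9 CPM in HIF-1α cells, and fell by 0.94 ± 0.23 (edgeR adjusted p = 0.0452) although the groups overlapped. KRT18, one of the markers chosen for the renal line, also fell in this fit, by 0.86 ± 0.19 (edgeR adjusted p = 0.0405), and all 5 of those markers were below 0, with a median of -0.67. Their part in the values of the sterol genes was not tested.

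The medians of the lists differed. The isoprenoid branch, which draws on the farnesyl diphosphate of FDPS, had a median log2 fold change of -0.41 with HIF-1α against control without the block and 6 of its 8 genes below 0. The other SREBP and LXR pathway genes had a median of 0.21, with 5 of 11 below 0. With HIF-2α against control no gene of the 4 lists was called in either fit. In the direct contrast with the block ACACB was higher in HIF-1α cells by 1.27 ± 0.25 (edgeR adjusted p = 0.02), and ACSL5, which activates long-chain fatty acids, was higher by 1.14 ± 0.25 (edgeR adjusted p = 0.032). ELOVL2, an elongase of polyunsaturated fatty acids, was lower by 0.83 ± 0.18 (edgeR adjusted p = 0.0325), and its groups overlapped. Of all genes tested 4.54% were called higher and 1.38% lower in the direct contrast with the block.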

How the data were processed

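RNA-seq gene counts, made from polyA-selected directional libraries of 9 samples, were deposited by the authors as raw counts per gene symbol, not normalized. Per the labels and the study's methods, reads were aligned to GRCh37 with TopHat2 2.0.8b and Bowtie 1.0.0 and counted with HTSeq 0.5.4p3 on UCSC genes. All 9 columns were used. ChIP-seq peaks were deposited by the authors as positions without a score, every peak being 2500 bp wide, from reads aligned with BWA 0.7.5a-r405 and called by both T-PIC and MACS, with 1 library per list.

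The 31 genes, the other lists and the tests were chosen with earlier results of these data known. Counts were fitted in R 4.3.3 with edgeR 4.0.16 (quasi-likelihood test, TMM factors, filterByExpr, all 9 libraries, pool as the only term, Benjamini-Hochberg adjustment over 14225 genes, threshold 0.05). CPM use TMM-scaled totals. Within-pair differences use log2 CPM with a prior count of 2. Deviations from the pool means correlated over genes at 0.348 to 0.652 in the 9 same-numbered pairs and at -0.478 to 0.0281 in the other 18 pairs, so the numbers were taken to pair the libraries. Deviations cancel within a pool, so positive values in same-numbered pairs push those of the other pairs down, and these ranges are not independent. The pairing was thus read from the same data that were fitted. The labels do not state what the numbers share. DESeq2 1.42.0, other size factors, no filter and leaving out libraries were alternatives. No 2 replicates agreed within sampling noise. Scripts were tested on simulated data.

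Statistics were given in full for genes past the threshold in either edgeR fit, otherwise for the 3 with the largest change in the fit with the block. Start sites came from GENCODE lifted to GRCh37, on which 13769 of the 14225 genes were placed, and motifs were searched with Python 3.11.15 (scipy 1.17.1, matplotlib 3.10.9).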

Additional observations from a re-analysis of the deposited data

How the results depend on the processing

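The 7 genes that fell with HIF-1α in the fit with the block kept their direction in every alternative, as did INSIG2 and STARD4 in the same comparison and STARD4, SREBF1 and INSIG2 in that of HIF-2α with control. With HIF-1α against control, where the edgeR fit without the replicate block called 0 genes, the replicate block gave 7, the block with DESeq2 size factors 7 and the block with library totals alone 7, DESeq2 gave 5 and DESeq2 with the block 12. Leaving out 1 library or 1 replicate number gave 0 to 8. With HIF-1α against HIF-2α, where the same fit called 0, the replicate block gave 3, with DESeq2 size factors 4 and with library totals 2, DESeq2 gave 3 and DESeq2 with the block 7, and leaving out libraries gave 0 to 3. Over the whole table the fits with all libraries called 7, 843, 829, 852, 649 and 1799 genes, in that order. For the replicate number, with 9 genes called, the DESeq2 likelihood ratio test gave 14 and a fit without the pool term 1, and leaving out libraries gave 2 to 12. HIF-2α against control gave 0 in all 30 alternatives, and its median over the genes ran from -0.31 to 0.06. The medians of HIF-1α against control (-0.67 to -0.24) and of HIF-1α against HIF-2α (-0.54 to -0.10) stayed below 0. Genes with a HIF-1β peak in HIF-1α cells numbered 22 within 50 kb of a start site (57.2% of all placed genes), against 17 within 10 kb (40.8%). With other distances or the 5-prime end alone, HIF-2α peaks in control cells were at 3 to 6 genes, against 5, and those in HIF-2α cells at 7 to 13, against 10. The cause of these changes was not tested. Fits that leave out a library or a number have fewer samples, and the alternatives that combine the block with a left-out library or with other size factors were added after the data were seen. The spread between replicates (a biological coefficient of variation of 37.6% without and 24.6% with the block), not depth, limited these comparisons.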
